A study of Mus musculus with 20 samples.

Results

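This report describes the transcriptome of mouse embryonic fibroblasts that had received only the carrier of a drug study: the 4 samples titled as control at 0 h, of 20 samples in the whole series. Every sample with that title was taken and none was left out. The fibroblasts were of a Balb/c background and were cultured in medium with serum, glutamax and uridine, and the controls received ethanol at 3 µl/ml. The series set them against cells given actinonin at 150 µM for 6, 24, 48 or 72 h, and those cells are not described here. No genotype other than the strain background is given in the labels, and each control pooled RNA from 4 plates, so that differences between plates are not seen. The labels call the 4 controls independent but do not say how the cultures were started, so the spread between them may be in part technical.

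Embryonic fibroblasts are connective tissue cells that lay down collagen and other matrix, and they are grown from whole minced embryos, usually without the head and the inner organs. In culture they carry actin stress fibres and divide until stress of the culture halts them. They are known to keep Hox gene patterns of their place in the body, and the culture may still hold cells of muscle, skin, vessel or blood.

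The controls were read on 2-colour Agilent arrays of 62976 spots, with 1 control in 1 channel of each of 4 arrays and another sample of the series in the other channel. They are named by label number and dye: 1_Cy3 and 1_Cy5 lay on slide 1, and 2_Cy3 and 2_Cy5 on slide 2. Values below are always given in that order. A level is the log2 intensity of the authors' deposited matrix, and a mean is over the 4 controls with its SD (n = 4). A gene is called detected where 1 of its probes was marked by the scanner software as well above background in a control's own channel. Levels are brightnesses of probes and not amounts of RNA, so an order of genes by level is an order of probes, given as a description only. Spots well above background made up 50.8%, 55.2%, 66.4% and 54.9% of the 59305 gene spots. Control 2_Cy3 stood apart with the highest share, and its part in the results was not tested other than by leaving it out. The other channel of its array had 70.5%, the highest of all 20 samples. On the array of control 1_Cy3 the 99th percentile of negative control spots was the highest in both channels (7.13 and 7.44). Whether these are traits of the arrays was not tested. No gene spot of any control was saturated.

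The 59305 gene spots held 55681 probes, of which 27235 could be named, for 20660 genes. Of these genes 12801 were detected in all 4 controls (62.0%) and 5011 in none (24.3%). Another 1809 had no probe detected in more than 1 control, and 1532 of those, 84.7%, were seen in control 2_Cy3 alone. Conversely 534 genes were detected in 3 controls, and 406 of them were missing only from control 1_Cy3. Flag and level come from the same spots, so the classes part by level by construction. The median was 10.70 for genes detected in all 4 and 6.36 for genes detected in none. Of 2029 genes at levels between 7 and 8, 90.7% were detected in all 4. The lowest mean among genes detected in all 4 was 6.83. Unnamed probes were detected less widely, 10112 of 28446 in all 4 controls (35.5%), and among the 16194 that the array names only by a genome position 5046 were (31.2%).

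Among the named genes the brightest probe was that of Actb, the cytoplasmic beta actin, at 18.11, 18.36, 18.00 and 18.23. Col1a2, a chain of type I collagen, was at 17.58, 17.90, 18.11 and 18.11, so that both slide 2 controls were above both slide 1 controls. Acta2, the smooth muscle actin that marks contractile fibroblasts, was at 17.71, 17.62, 17.61 and 17.63, a range narrower than that of either other gene. Among the 30 brightest were 6 cytosolic ribosomal protein genes (Rplp0, Rps14, Rpl41, Rpl37, Rpl37a and Rpl10), 3 of the fibroblast list (Col1a2, S100a4 and Sparc), and the gamma actin gene Actg1. Others were Tuba1b, an alpha tubulin; Cct2, a subunit of the chaperonin that folds actin and tubulin; Lgals1, a galectin; Ppia, cyclophilin A; Tpt1, a translationally controlled protein; S100a6, a calcium-binding protein; Pcolce, which enhances procollagen cleavage; Medag, named for a part in fat cell formation; and Exosc2 and Nup107 of the RNA exosome and the nuclear pore. Their means lay between 17.59 and 18.18, and their SDs between 0.04 and 0.48.

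Several of the brightest genes were bright by 1 probe alone. Of the 30, 16 had more than 1 probe, and in 9 of these 16 the brightest and dimmest probes of the gene differed by more than 4 log2 units (56.3%). Over all 5476 named genes with several probes the share was 12.2%, and the median spread between a gene's probes was 1.20. The 30 genes were chosen by their brightest probe, so nothing is read from the difference between these shares. Elk1, a transcription factor of the ETS family, was at 17.94 by its brightest probe and at 7.70 by the other. Slc10a1, the bile acid transporter of hepatocytes, was at 17.68 and at 6.37, and the dimmer probe was not detected in all 4 controls. The same held for Kctd14 (17.74 against 6.60 and 6.42) and Pbld1 (17.72 against 6.46). The rest of the 9 were Ttc38 (second probe 8.87), Glrx2 (10.67), 2610028H24Rik (9.68), Sparc (13.42) and Fam177a2 (10.51). For the ribosomal gene Rpl10 the probes lay within 0.11 of each other, and for S100a4, a calcium-binding protein of motile mesenchymal cells, both probes were at 17.66. Which transcripts the discordant probes read was not tested.

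**Figure D1:**
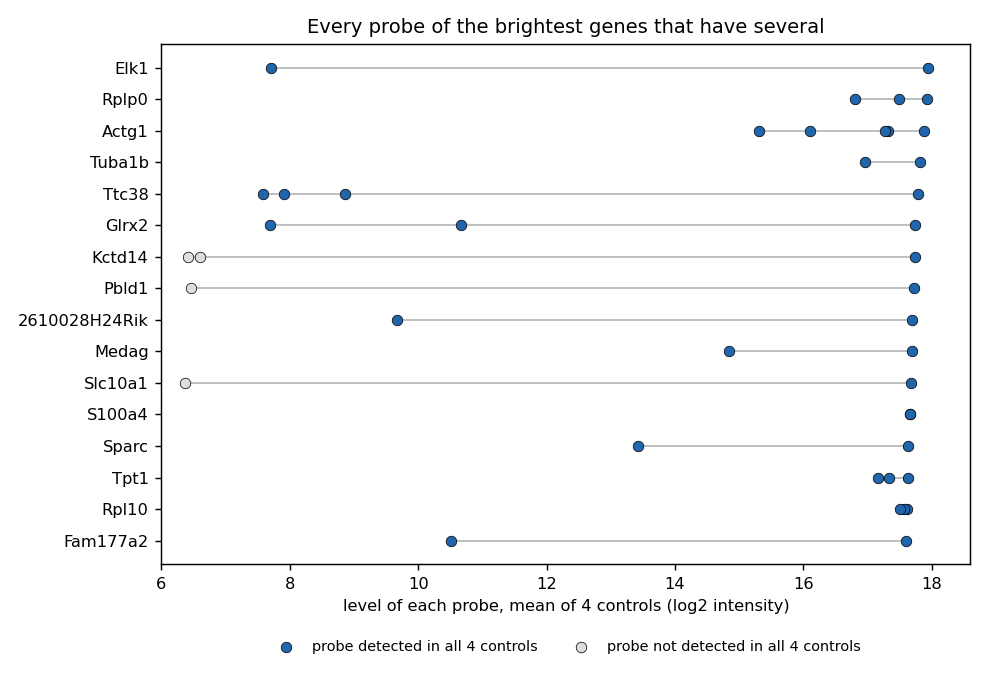
Mean level of each probe (log2 intensity, 4 controls) for the 16 of the 30 brightest genes that have several probes, brightest gene at the top; grey lines join the probes of a gene. Probes of Rpl10, Tpt1 and S100a4 lie close together, while those of Kctd14, Pbld1 and Slc10a1 span more than 11 log2 units.

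The markers of fibroblasts were detected nearly whole. Of 39 measured genes of the fibroblast and mesenchymal list, 38 were detected in all 4 controls, against 62.0% of all named genes. Vim, the intermediate filament of mesenchymal cells, was at 17.54, 17.28, 17.70 and 17.50. Col1a1, the other chain of type I collagen, was at 17.29, 16.94, 17.67 and 17.26. Both genes ranged over less than 1 log2 unit, and neither separated the slides. Fn1, fibronectin, had a mean of 17.33 ± 0.11, Thy1, a surface marker of fibroblasts, 15.57 ± 0.19, and Col3a1, the chain of type III collagen, 14.97 ± 0.13. The mesenchymal transcription factors Prrx1 (13.68 ± 0.19), Snai2 (13.40 ± 0.14), Twist2 (12.65 ± 0.10), Zeb1 (11.84 ± 0.09) and Twist1 (11.12 ± 0.04) were all detected in all 4. The exception was Lum, the matrix proteoglycan lumican, at 7.74, 7.85, 6.35 and 6.63, which was detected in both slide 1 controls and in neither slide 2 control. Of 43 measured collagen genes 28 were detected in all 4 controls (65.1%) and 10 in none (23.3%), near the 62.0% and 24.3% of all named genes. Of 22 matrix metalloproteinases 8 (36.4%) and 10 (45.5%) were.

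Genes of the contractile apparatus were nearly as widely detected, 15 of 18 in all 4 controls (83.3%), against 62.0% of all named genes. Other detection rules gave 14 to 17. Myl9, the regulatory light chain of non-sarcomeric myosin, was at 17.55, 17.45, 17.43 and 17.37. Tagln, the actin-binding transgelin, was at 17.19, 17.04, 16.74 and 16.51, lower in both slide 2 controls. Both were among the list's brightest genes, together with Acta2. Cnn1, calponin, had a mean of 15.56 ± 0.18 and Actg2, the enteric smooth muscle actin, 15.38 ± 0.26. Myh11, the myosin heavy chain of differentiated smooth muscle (6.66 ± 0.15), and Des, desmin (6.70 ± 0.13), were each detected in 1 control, and Myocd, the coactivator myocardin (6.43 ± 0.11), in none. Srf, the serum response factor that binds CArG boxes (12.54 ± 0.22), and Mrtfa, its actin-regulated coactivator (14.42 ± 0.11), were detected in all 4.

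CArG boxes, the element that serum response factor binds, were searched by that name's pattern, which reads alike on both strands, in windows from 250 bases before to 50 bases after the start of each gene (RefSeq, GRCm38.p6). Of all 27025 listed windows 1.57% held at least 1. Of the 34 windows found for genes of the contractile and muscle lists with Actb and Actg1, 6 did. A window was found for 14 of 18 contractile genes (77.8%) and 19 of 24 skeletal and cardiac muscle genes (79.2%). The rest could not be searched, so no enrichment is read from these shares. Acta2, Tagln and Cnn1 were not among the 6, for want of a box or of a window. The 30 bases around the box are shown for 5 of the 6 to set detected genes beside an undetected one, with the box in capitals; Srf, which was detected in all 4 controls, held a pair of boxes. A match is a description of the letters and not a bound site.
Actg1 (chr11:120348566-120348595, minus strand): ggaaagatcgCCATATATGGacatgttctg
Myl9 (chr2:156775293-156775322, plus strand): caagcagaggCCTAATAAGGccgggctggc
Cnn2 (chr10:79988534-79988563, plus strand): cgcttccacgCCTTATAAGGacatttgctc
Acta1 (chr8:123894829-123894858, minus strand): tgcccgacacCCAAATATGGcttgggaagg
Actc1 (chr2:114052903-114052932, minus strand): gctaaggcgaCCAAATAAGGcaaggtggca
The boxes began 90, 161, 56, 73 and 47 bases before the start. Actg1 (17.87 ± 0.12), Myl9, Cnn2, a calponin of many cell types (14.72 ± 0.11), and Acta1, the skeletal muscle actin (13.47 ± 0.16), were detected in all 4 controls, whereas Actc1, the cardiac actin, was at 6.25 ± 0.18 and detected in none.

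Genes of muscle outside the smooth muscle programme were less often detected in all 4 controls than named genes at large. Of 24 skeletal and cardiac muscle genes, 7 were detected in all 4 controls (29.2%), 6 in 1 to 3 and 11 in none (45.8%). Of all named genes 62.0% were detected in all 4 and 24.3% in none. None of the skeletal determination factors was detected in any control: Myod1 was at 6.38, 6.59, 6.43 and 6.69, and Myf5, Myf6 and Myog had means of 6.25, 6.49 and 6.35. The sarcomeric exceptions were Acta1, at 13.40, 13.69, 13.32 and 13.46, and Tnnt2, the cardiac troponin T, at 11.24, 11.63, 11.89 and 11.93. The other 5 detected genes of this list (Tnni2, Tnnt1, Myh7, Tnni3 and Tnnt3) had means of 7.62 or less, near the level at which detection begins.

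Cartilage, bone and fat markers were detected at shares of 61.5%, 70.0% and 50.0%, near the 62.0% of all named genes. Sox9, the cartilage transcription factor, had a mean of 10.23 ± 0.24, and the cartilage matrix genes Col2a1 (7.03 ± 0.25) and Acan (7.06 ± 0.14) were detected too; 8 of 13 cartilage genes were detected in all 4 controls. In the bone list 7 of 10 were, among them Spp1, osteopontin (12.79 ± 0.41), and the osteoblast factors Runx2 (7.84 ± 0.03) and Sp7 (7.34 ± 0.35). In the fat list 7 of 14 were, among them Pparg, the adipocyte nuclear receptor (10.75 ± 0.14), Cebpb (12.92 ± 0.12) and Cebpd (13.00 ± 0.24), its upstream factors. Adipoq, adiponectin, and Plin1, the lipid droplet coat of fat cells, were detected in none.

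The epithelial, vessel, blood and liver lists each held undetected and detected genes. Cdh1, the epithelial cadherin, was at 6.37, 6.34, 6.35 and 6.37. Ptprc, the leukocyte antigen CD45, was at 6.71, 6.65, 6.36 and 6.70. Alb, albumin, was at 6.33, 6.27, 6.48 and 6.22. None of these was detected in any control. In the epithelial list 7 of 20 genes were detected in all 4 controls and 6 in none. Krt8, the simple epithelial keratin, was detected in none, and its partner Krt18 in 2. Those detected were Krt19 (10.27 ± 0.20), Krt10, Krt14, Krt5, Cldn7, Esrp1 and Trp63. In the endothelial list 5 of 14 were detected in all 4 and 5 in none. Cdh5, the vessel cadherin, and Tek, the angiopoietin receptor, were among the latter, while Egfl7 (11.79 ± 0.11) and the receptors Flt1 (11.67 ± 0.27) and Kdr (12.27 ± 0.45) were detected. In the leukocyte list 5 of 15 were detected in all 4 and 9 in none, in the erythroid list 2 of 13 and 7, and in the hepatocyte list 2 of 13 and 9.

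**Figure D2:**
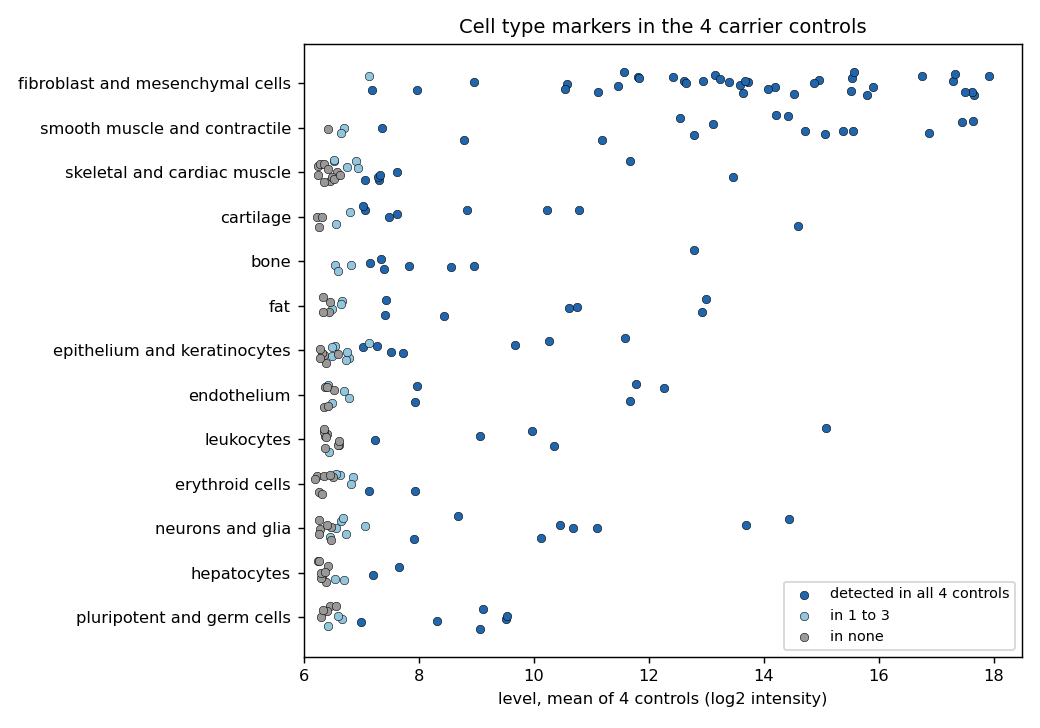
Mean level (log2 intensity, 4 controls) of each measured gene of 13 cell type marker lists; each point is a gene, coloured by the number of controls in which it was detected, and points are spread vertically only for legibility. The fibroblast and contractile lists reach 17.93 and 17.64 with 38 of 39 and 15 of 18 genes detected in all 4 controls, while most genes of the blood and hepatocyte lists lie below 7.

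Some bright markers of other lineages again rested on 1 probe of several. Itgam, an integrin chain of myeloid cells, was at 14.78, 14.86, 15.29 and 15.43 by its brightest probe, while its other probes had means of 7.31 and 7.06. Sox5, a cartilage factor, had probes at 14.59 and 6.94, Kdr at 12.27 and 6.89, and Trp63, a factor of stratified epithelium, at 11.59 and 7.03. By contrast Csf1r, the receptor of macrophage colony-stimulating factor, had probes at 10.36, 9.03 and 6.82. Snap25, a synaptic vesicle fusion protein (14.43 ± 0.39), Nes, the intermediate filament nestin (13.70 ± 0.38), and Tubb3, a neuronal tubulin (11.10 ± 0.05), were detected by the only probe of each, and 8 of 20 genes of the neuronal and glial list were detected in all 4 controls. Sox2, Olig2, Rbfox3 and Stmn2, markers of neural progenitors, oligodendrocytes and neurons, were detected in none. In the pluripotency and germ cell list 6 of 14 were detected in all 4 (42.9%). Nanog, a pluripotency factor with processed copies in the genome, was at 9.27, 9.42, 9.63 and 9.74, whereas Pou5f1 was detected in 1 control and Zfp42, Ddx4 and Dazl in none.

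The Hox genes lie in 4 clusters that are read in order along the body axis. Of 39 measured, 28 were detected in all 4 controls (71.8%) and 8 in none (20.5%). Of all named genes 62.0% and 24.3% were. The clusters differed. In Hoxa 10 of 11 genes were detected in all 4, in Hoxb 8 of 10, in Hoxc 8 of 9 and in Hoxd 2 of 9. By paralog group, 9 of 12 genes of groups 1 to 4, 14 of 15 of groups 5 to 9 and 5 of 12 of groups 10 to 13 were detected in all 4. Hoxc6 was at 14.56, 14.43, 14.48 and 14.27, and Hoxc9 at 13.27, 12.87, 12.72 and 12.62. Hoxb6 (12.30 ± 0.11) and Hoxb7 (12.06 ± 0.11) were also detected throughout. From the posterior end Hoxa10, Hoxa11, Hoxc10, Hoxc11 and Hoxc13 were detected in all 4, whereas Hoxd10, Hoxd11, Hoxd12 and Hoxd13, Hoxc12 and Hoxb13 were detected in none. At the anterior end Hoxb1 and Hoxd1 were detected in none.

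**Figure D3:**
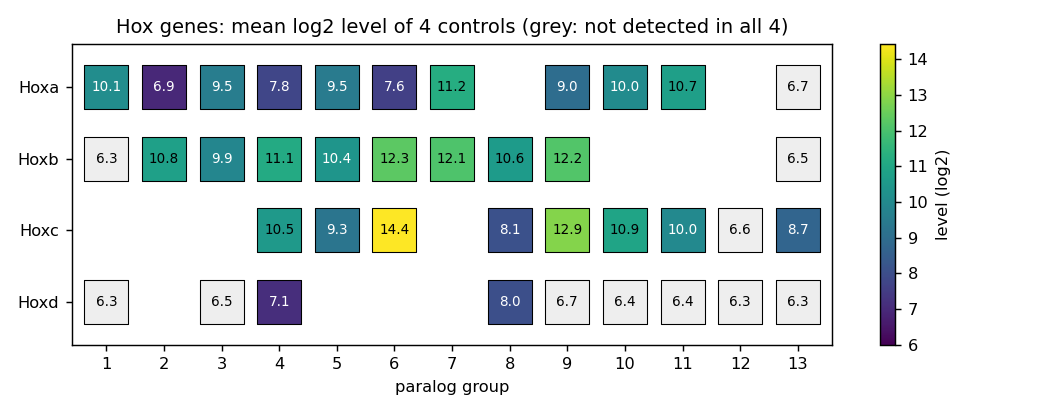
Mean level (log2 intensity, 4 controls) of the 39 measured Hox genes, by cluster (rows) and paralog group (columns); coloured squares were detected in all 4 controls and grey squares were not. The Hoxd row holds 2 coloured squares of 9, and the brightest square is Hoxc6.

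Other transcription factors of body regions showed a mixed pattern. Of 80, 45 were detected in all 4 controls (56.25%) and 22 in none (27.5%), near the 62.0% and 24.3% of all named genes. Pitx1, a factor of the hindlimb and the first pharyngeal arch, was at 13.22, 13.32, 13.13 and 13.30. Tbx15, a factor of skin and limb mesenchyme, had a mean of 12.10 ± 0.13. These stood beside undetected limb genes: Tbx4, of the hindlimb, and Tbx5, of the forelimb, were detected in none. Pax1, Pax6, Pax7, Pax8 and Pax9 were detected in none either, and neither were the heart factors Nkx2-5, Hand1, Hand2 and Tbx20. Lhx6, of the jaw mesenchyme and forebrain, had probes at 12.95, 8.35 and 6.41, and Foxl2, an ovarian and eyelid factor, at 13.34 and 7.06.

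Cell cycle genes were detected throughout. All 30 genes of the G2/M and mitosis list were detected in all 4 controls, as were 62.0% of all named genes. Mki67, the proliferation antigen Ki-67, was at 14.84, 14.56, 15.04 and 15.01. Of 17 cell cycle inhibitors and senescence genes 16 were detected in all 4. Cdkn2a, the locus of the inhibitors p16Ink4a and p19Arf, was at 15.81, 15.56, 15.37 and 15.31, with its other probe at a mean of 11.57. Cdkn1a, the p53 target p21, was at 14.37, 14.23, 13.94 and 14.26. Both inhibitors were thus bright in the same samples as the mitotic genes. Mdm2, the ubiquitin ligase of p53 and a p53 target, was at 16.55, 17.41, 17.63 and 17.66, with control 1_Cy3 lowest, and Trp53 itself had a mean of 10.46 ± 0.45. Cbx7 (6.50 ± 0.12), a Polycomb protein, was detected in none.

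Xist, the RNA of the inactive X chromosome, was at 11.04, 11.17, 11.05 and 10.95, and its other probe had a mean of 9.82. The Y-linked genes Ddx3y, Eif2s3y, Kdm5d, Uty, Zfy1 and Zfy2 were detected in none of the controls, and Usp9y and Sry in 1 each. Of 27 imprinted genes 21 were detected in all 4 (77.8%), against 62.0% of all named genes. Dlk1, an inhibitor of fat cell formation, was at 14.86, 14.95, 15.48 and 15.57, and Meg3, the noncoding RNA of the same imprinted region, at 14.99, 15.00, 15.25 and 15.32. Igf2, the fetal growth factor, was at 6.63, 6.42, 6.26 and 6.69 and was detected in none, as was Phlda2, a placental growth restrictor (6.20 ± 0.15).

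Families of tissue isoforms held detected and undetected members. Of 44 measured genes 32 were detected in all 4 controls (72.7%) and 8 in none (18.2%), against 62.0% and 24.3% of all named genes. For lactate dehydrogenase, Ldha (17.07 ± 0.18) and Ldhb (11.80 ± 0.20) were detected in all 4 and the testis form Ldhc in 1. For the translation factor eEF1A, Eef1a1 (17.17 ± 0.16) was detected in all 4 and the neuron and muscle form Eef1a2 in 1. Among glucose transporters Slc2a1 (13.28 ± 0.53) and Slc2a4 (7.44 ± 0.17) were detected in all 4, and the liver form Slc2a2 and the neuronal form Slc2a3 in none. The muscle creatine kinases Ckm and Ckmt2 were detected in none, and Ckmt1 (11.68 ± 0.32) in all 4.

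Receptor tyrosine kinases, which receive growth factors at the cell surface, were detected in all 4 controls for 38 of 58 genes and in none for 11. Pdgfrb (13.73 ± 0.36) and Pdgfra (11.57 ± 0.33), the receptors of platelet-derived growth factor, Fgfr1 (14.34 ± 0.09), Axl (14.23 ± 0.40), Ephb3 (14.47 ± 0.20), Igf1r (12.28 ± 0.24) and Egfr (11.60 ± 0.27) were detected. Kit, Erbb3, Erbb4, Ros1, Alk and Flt4 were not. Of 24 integrin genes and their named partners 17 were detected in all 4 (70.8%, against 62.0% of all named genes). Among them were Itgb5 (15.14 ± 0.15) and the collagen receptor chain Itga11 (14.47 ± 0.10). Pdf, the mitochondrial peptide deformylase that actinonin inhibits, was at 11.21, 11.22, 11.07 and 10.97. Of 13 deformylase and aminopeptidase genes 11 were detected in all 4 (84.6%, against 62.0% of all named genes). Among them were Metap1, Metap2 and Metap1d, which remove the first methionine of proteins, and Mtfmt, which adds the formyl group in mitochondria (10.90 ± 0.10).

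The machinery of protein synthesis and breakdown was detected nearly whole. Of cytosolic ribosomal protein genes 82 of 86 were detected in all 4 controls, of mitochondrial ribosomal protein genes 77 of 78, of aminoacyl-tRNA synthetases 32 of 33 and of proteasome genes 48 of 50. The members detected in none were Rpl3l, a form of striated muscle, Mrpl21, and Psma8, a form of the testis. Of 47 mitochondrial Slc25 carriers 34 were detected in all 4 (72.3%, against 62.0% of all named genes), among them the adenine nucleotide carrier Slc25a4 (16.47 ± 0.04). Of 369 zinc finger genes named Zfp 332 were (90.0%).

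Receptor families of the sense organs were mostly not detected. Of 1375 genes of 5 chemoreceptor families 68 were detected in all 4 controls (4.95%) and 983 in none (71.5%). Of all named genes 62.0% and 24.3% were. For the 1071 olfactory receptors, which sense odours in the nose, the counts were 51 and 736. By the scanner software's more lenient flag of a positive and significant spot they were 176 and 242, and without control 1_Cy3 84 were detected throughout. The number of them detected in each control was 59, 102, 311 and 122, highest in control 2_Cy3 and lowest in control 1_Cy3. Of 164 vomeronasal type 1 receptors 10 were detected in all 4 and 145 in none, of 88 type 2 receptors 4 and 67, of 38 taste receptors 3 and 25, and of 14 trace amine receptors 0 and 10. Among the olfactory receptors detected, the brightest probe was that of Olfr544, at 11.76, 11.46, 11.84 and 12.02, followed by Olfr1229 (11.04 ± 0.14) and Olfr1466 (10.55 ± 0.09), each with 1 probe. Tas2r109 (9.94 ± 0.07) and Tas2r113 (9.59 ± 0.12) were among the taste receptors detected. Many members of these families are near copies of each other, so a probe may read more than 1 of them.

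Families of skin, gut, lens, milk and placenta ranged more widely. None of 17 alpha-defensins and none of 5 caseins was detected in all 4 controls. Of 43 beta-defensins 3 were, of 14 beta and gamma crystallins 1, of 12 UDP-glucuronosyltransferases 1 (Ugt1a6b, 12.08 ± 0.23), of 29 Pramel genes 4, of 11 Ly49 receptors 2 and of 10 alpha interferons 4. Of 53 keratins 15 were detected in all 4, of 51 keratin-associated proteins 18, of 18 late cornified envelope genes 6, of 27 kallikreins 7, of 46 Cyp2 cytochromes 12, of 23 genes of the prolactin family 6 and of 23 A-clade serpins 8. Each of these families was below the 62.0% of all named genes detected in all 4. Each also exceeded the 24.3% of all named genes detected in none, except the alpha interferons, with 2 of 10. Krt222 had probes at 13.13 and 6.36. Of 21 Rhox homeobox genes 6 were detected in all 4, and Rhox8 had probes at 16.78 and 8.28. Lce1a2 (12.12 ± 0.15) and Serpina3f (11.97 ± 0.19) had the brightest probes of their families, and for both the second probe was also detected in all 4.

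**Figure D4:**
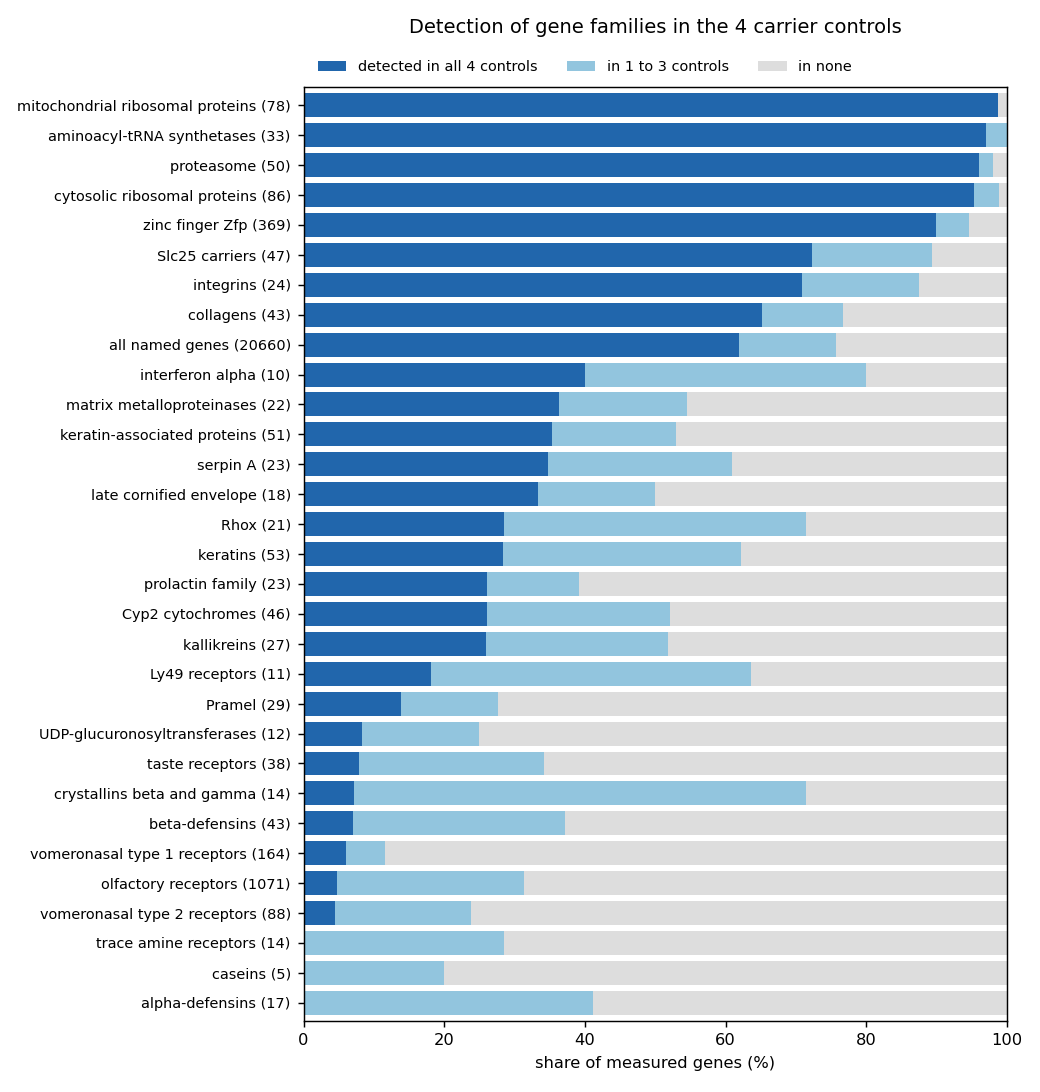
Share of the measured genes of each family (number in brackets) that were detected in all 4, in 1 to 3 or in none of the controls, with all 20660 named genes for comparison. Ribosomal, proteasome and synthetase genes exceed 95%, and the chemoreceptor families lie below 8%.

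Promoter windows of silent and detected genes are shown for their content of the dinucleotide CG, which marks CpG islands and reads alike on both strands. A window was found for 79.3% of named genes, under the 80% that a comparison of detected with silent genes would need, so none was made over those classes. Among families above that share, each given beside all 27025 listed windows (median 7 CG, 94.2% with at least 1), the median was 1 CG for the 910 windows of olfactory receptors, 1 for the 145 of vomeronasal type 1 receptors and 25 for the 25 of G2/M genes. Detection is not read from these values. The windows of a bright housekeeping gene, a bright matrix gene, a silent developmental gene and a silent liver gene follow (RefSeq, GRCm38.p6, 300 bases, CG in capitals).
Actg1 (chr11:120348446-120348745, minus strand): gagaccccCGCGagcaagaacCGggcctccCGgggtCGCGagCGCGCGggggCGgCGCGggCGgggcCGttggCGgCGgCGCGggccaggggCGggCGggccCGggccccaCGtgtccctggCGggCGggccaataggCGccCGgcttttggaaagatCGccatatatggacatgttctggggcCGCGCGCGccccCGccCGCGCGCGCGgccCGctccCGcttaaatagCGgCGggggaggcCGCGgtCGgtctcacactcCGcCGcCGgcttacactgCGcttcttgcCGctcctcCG
Col1a2 (chr6:4505368-4505667, plus strand): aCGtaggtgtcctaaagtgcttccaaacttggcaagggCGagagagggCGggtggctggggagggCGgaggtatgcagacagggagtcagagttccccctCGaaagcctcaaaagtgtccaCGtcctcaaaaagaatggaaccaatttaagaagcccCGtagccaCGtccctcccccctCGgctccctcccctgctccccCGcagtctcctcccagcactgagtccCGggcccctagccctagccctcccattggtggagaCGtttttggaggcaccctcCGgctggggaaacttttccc
Hoxd13 (chr2:74667975-74668274, plus strand): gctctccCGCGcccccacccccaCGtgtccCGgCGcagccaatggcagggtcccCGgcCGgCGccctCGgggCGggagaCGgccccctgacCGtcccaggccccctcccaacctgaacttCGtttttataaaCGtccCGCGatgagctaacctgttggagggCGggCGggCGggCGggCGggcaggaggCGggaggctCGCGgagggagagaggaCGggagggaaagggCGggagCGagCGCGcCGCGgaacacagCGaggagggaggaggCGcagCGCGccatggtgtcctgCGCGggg
Alb (chr5:90460620-90460919, plus strand): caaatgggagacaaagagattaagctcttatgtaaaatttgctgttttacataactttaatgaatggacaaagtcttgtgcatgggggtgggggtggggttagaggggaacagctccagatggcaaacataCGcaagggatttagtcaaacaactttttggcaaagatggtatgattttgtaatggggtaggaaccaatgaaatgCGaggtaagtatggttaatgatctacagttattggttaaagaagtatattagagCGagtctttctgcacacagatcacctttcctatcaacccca
The windows held 50, 13, 37 and 3 CG. They are single examples, and no order of CG content with level is drawn from them.

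The 4 controls agreed closely. Over the 12801 genes detected in all 4, Pearson's r between pairs of controls was 0.989 to 0.996 and Spearman's rho 0.988 to 0.996, across genes, which are not independent replicates. Between 98.9% and 99.9% of these genes differed by less than 2-fold in a given pair. The median SD of a gene was 0.16, 95% of genes had an SD under 0.38, and 10 genes had an SD above 1. The median SD hardly moved with level, from 0.19 for genes between 7 and 8 to 0.14 for genes between 13 and 14. Over these genes the pairs of a slide were closest. The median difference of a gene was 0.13 between the slide 1 controls and 0.12 between the slide 2 controls. For single controls of different slides it was 0.19 to 0.21, and between the means of the slides 0.18. Over all named genes the median differences were again smallest within a slide (0.13 and 0.14). Spearman's rho over all named genes (0.958 to 0.980) was highest for 1_Cy5 and 2_Cy5, which lay on different slides.

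The slides could be compared within the controls because each held 1 control of each dye. With limma over all 20 samples, 8085 of 22908 genes and transcripts differed between the slides at an adjusted p under 0.05 (35.3%), 4492 higher on slide 2 (19.6%) and 3593 lower (15.7%). The differences were small: the median size among those called was 0.37 log2 units, and 54 were at least 2-fold higher and 53 at least 2-fold lower. Fitted on the 4 controls alone the test called 3032. The fit over all 20 samples had 11 residual degrees of freedom, against 1 for the controls alone. Its spread thus came mostly from the actinonin samples. The 2 controls of a slide do not replicate the slide, so the p-values do not measure spread between slides. Slide, label number, scan, software version and the sample in the other channel coincide and cannot be told apart. That other sample had actinonin for 6 h on both slide 1 arrays and for 48 h on both slide 2 arrays. Of 10 spike-in RNAs that were added to check the labelling, all 10 were lower on slide 2 in the deposited matrix, with differences of -2.76 to -2.08 log2 units, and their part in the slide differences was not tested. Where a named gene that passed had further probes well above background in all 4 controls, 71.4% of 1509 such probes differed with the same sign.

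The 8 named genes with the widest falls from slide 1 to slide 2 are given by their values. Plin4, a lipid droplet coat protein, was at 8.87 and 8.79 on slide 1 and at 6.81 and 7.32 on slide 2, a difference of -1.76 ± 0.10 (SE, limma, adjusted p = 1.17e-07). Malat1, a nuclear noncoding RNA, was at 13.18 and 13.16 against 11.76 and 11.31 (-1.63 ± 0.13). Mt1, a metallothionein, was at 14.39 and 14.54 against 12.88 and 13.04 (-1.51 ± 0.11). In none of these did the slides overlap. Dcn, the matrix proteoglycan decorin, was at 11.33 and 11.23 against 9.67 and 10.09 (-1.39 ± 0.18). The differences were -1.64 for Rspo3, a Wnt agonist, -1.59 for Lrrc17, -1.40 for N6amt1 and -1.37 for Tinag.

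Among genes higher on slide 2, Cck, the peptide hormone cholecystokinin, was at 11.85 and 11.76 against 13.11 and 13.11, a difference of 1.29 ± 0.12 (limma, adjusted p = 4.12e-06). Hsp90b1, an endoplasmic reticulum chaperone, was at 15.13 and 15.08 against 16.31 and 16.15 (1.13 ± 0.10). Ccl7, a chemokine for monocytes, was at 13.20 and 12.87 against 14.24 and 14.13 (1.15 ± 0.14). These did not overlap either. 1700022A21Rik, Vmn1r87 and Marchf1 rose by 1.22, 1.19 and 1.11. Pigp, of the glycosylphosphatidylinositol anchor pathway, had the widest difference, 2.08 ± 0.78 (limma, adjusted p = 0.0484), but it rested on 1 sample: the values were 8.10, 12.15, 12.22 and 12.19, and without control 1_Cy3 the fitted difference, which also draws on the other samples of the arrays through the array block, was 0.30 (limma, adjusted p = 0.861).

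**Figure D5:**
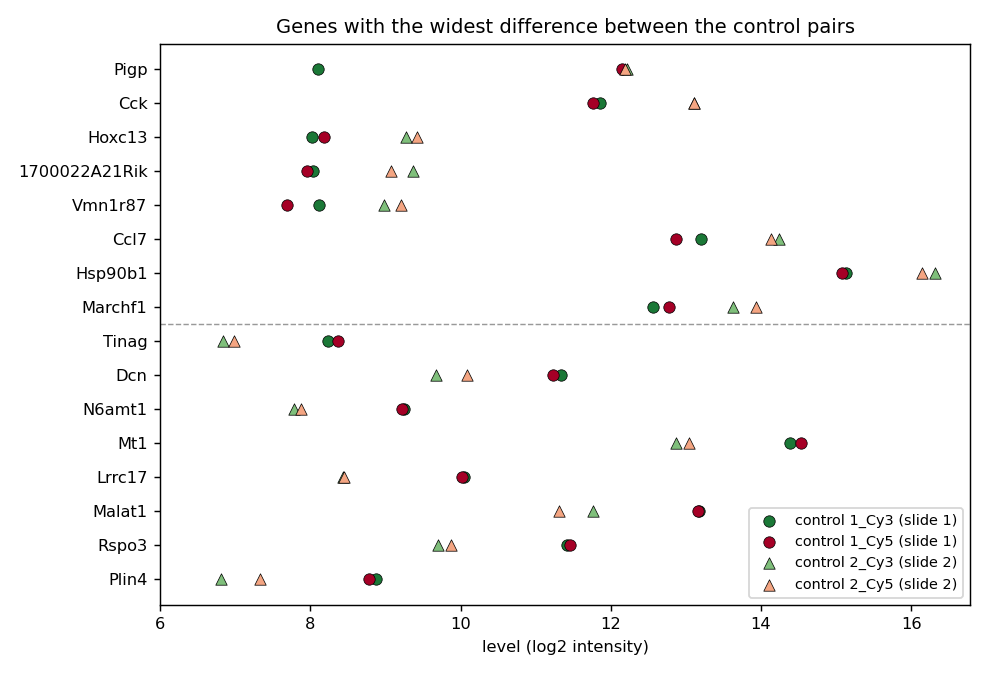
Level (log2 intensity) in each of the 4 controls of the 8 named genes with the largest rise and the 8 with the largest fall from slide 1 (circles) to slide 2 (triangles); the dashed line parts the directions. Circles and triangles are apart for every gene but Pigp, whose control 1_Cy3 lies alone at 8.10.

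By list, the mitotic genes stood on 1 side. Of 30 G2/M and mitosis genes 22 were higher on slide 2, none was lower and 8 did not pass the test; the median difference was 0.39, against 0.01 for all named genes tested, of which 19.4% were higher and 17.5% lower. Plk1, the mitotic kinase, was at 13.60 and 13.58 against 14.12 and 14.24, a difference of 0.59 ± 0.08 (limma, adjusted p = 3.99e-05), and Kif20a, a kinesin of cell division, at 13.21 and 13.17 against 13.84 and 13.79 (0.62 ± 0.09). The count of G2/M genes was 17 to 23 under the other settings of the fit over all samples and 11 with the 4 controls alone, and none was lower in any of them. Proteasome genes went 17 higher and 2 lower of 48, with a median of 0.10; 10 were higher without control 1_Cy3 or without control 2_Cy3, 4 with the 4 controls alone, and 13 higher and 7 lower with quantile normalization and no loess. Cytosolic ribosomal protein genes went the other way, 25 lower and 2 higher of 81, with a median of -0.12; without control 1_Cy3 and without control 2_Cy3 8 and 9 were lower, and with the 4 controls alone 4. Rpl23 was at 17.71 and 17.78 against 17.25 and 17.49 (-0.38 ± 0.07).

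The fibroblast list went both ways, 11 higher and 6 lower of 38, against 19.4% and 17.5% of all named genes tested. Without control 1_Cy3 or 2_Cy3 6 were higher and 3 lower, without 1_Cy5 or 2_Cy5 8 and 1, and with the 4 controls alone 5 and 2. Snai1, a mesenchymal repressor, was at 13.01 and 12.65 against 13.64 and 13.64 (0.81 ± 0.11, limma, adjusted p = 4.79e-05). Sparc was at 17.00 and 17.52 against 18.03 and 17.97 (0.74 ± 0.17). Fap, a surface protease of activated fibroblasts, fell, from 9.38 and 9.31 to 8.63 and 8.53 (-0.77 ± 0.20). Of 28 Hox genes tested 2 were higher on slide 2 and 7 lower. Hoxc13 was at 8.02 and 8.18 against 9.28 and 9.42 (1.25 ± 0.11), and Hoxc11 was also higher (0.48 ± 0.11). Hoxb9 was at 12.83 and 12.70 against 11.42 and 11.67 (-1.23 ± 0.21), with Hoxb8 (-1.18 ± 0.40), Hoxd4, Hoxc4, Hoxc9, Hoxa3 and Hoxa7 also lower. Without control 1_Cy3 and without control 2_Cy3 2 and 3 Hox genes were lower. With 1 control left out, the slide contrast rests on 1 sample of each slide, the pair of one dye, with the spread taken from the other samples, so that leaving out 1_Cy3 or 2_Cy3 is 1 check and leaving out 1_Cy5 or 2_Cy5 another. The slide difference of Sparc was 0.42 by the Cy5 pair (limma, adjusted p = 0.209 without control 1_Cy3). The slide difference of Fap missed the threshold by either pair (limma, adjusted p of 0.0563 to 0.0846), and so did the slide difference of Hoxb8 (0.0797 to 0.294). Hoxa3, Hoxa7, Hoxc9, Hoxc11 and Hoxd4 missed it without control 1_Cy3, while Snai1, Hoxb9, Hoxc4 and Hoxc13 passed by either pair. Of 38 receptor tyrosine kinases 15 were higher and 6 lower, the latter 1 without control 1_Cy5 or 2_Cy5. Of 45 regional factors 15 were higher and 5 lower, the former 9 without control 1_Cy5 or 2_Cy5.

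The dyes differed less. At the same threshold 158 of 22908 genes and transcripts differed between Cy5 and Cy3 within the controls (0.690%), 113 higher in Cy5 (0.493%) and 45 lower (0.196%), and none of them by 2-fold. Aldh1a3, a retinaldehyde dehydrogenase, was at 7.35 and 7.36 in the Cy3 samples and at 8.62 and 7.89 in the Cy5 samples, a difference of 0.86 ± 0.18 (limma, adjusted p = 0.0381). Rack1, a ribosome-bound scaffold, was at 16.72 and 17.27 against 17.74 and 17.59 (0.65 ± 0.13). Psme3, Spag7, Ubtf, Creb5, Sdcbp2 and Vwa5b2 were also higher in Cy5, by 0.59 to 0.62. Rbfox2, a splicing factor, was at 12.83 and 12.53 against 12.23 and 12.05 (-0.53 ± 0.08), and Hoxc5, Tubb5, Zfat, Eng, Bax, Plppr3 and Numa1 were lower by 0.41 to 0.50. With 1 control left out, the dye contrast rests on the 2 controls of the other slide, 1 sample of each dye: without control 1_Cy3 or without control 1_Cy5 limma called 0 (3813 and 3550 at an unadjusted p under 0.05), and without control 2_Cy3 or 2_Cy5 it called 869 and 863.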

How the data were processed

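Total RNA of each sample was labelled with Cy3 or Cy5 and read on 2-colour arrays. The deposited matrix holds log2 values of every spot, normalized by the authors, with R 2.15 and limma named per the submitters' processing notes and the steps not given in the sources used here. The scanner tables hold intensity values and 0 or 1 flags of each spot as written by Agilent Feature Extraction, per the file headers. Levels were taken from the matrix, whose order of spots matched each sample's own channel, and detection from the flag for a spot well above background in that channel. Spots of a probe were averaged, probes were named through RefSeq accessions, and a gene was given the level of its brightest probe. Where several probes were present, any of them could make a gene detected.

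Slide and dye differences were fitted with limma 3.58.1 in R 4.3.3 over all 20 samples, with terms for slide and dye within the controls and the array as a random block, on the 22908 genes and unnamed transcripts well above background in all 4 controls, with p-values adjusted by Benjamini-Hochberg. The scripts were checked on simulated data. Alternatives were other detection rules, other normalizations from the scanner signals (normexp with an offset of 50), other filters, probe rules and sample sets. The rule that every probe of a gene be detected, and the silent counts under the detection alternatives, were chosen after seeing the data. The samples, gene lists and tests were chosen with earlier results of these data known. Genes named were the 30 brightest, members of 52 lists, and the 8 largest slide and dye differences in each direction. The number of arrays limits the precision.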

Additional observations from a re-analysis of the deposited data

Results flagged for a closer look

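For each of 247 values of the report, the sample farthest from the other 3 controls was set against Dixon's critical ratio for 4 samples, which chance passes in about 1 of 20 groups. The 13 that passed are close to the number that this rate gives over so many values, and they are listed as values only. Pigp stood apart most, at 8.10 in control 1_Cy3 against 12.15 to 12.22 in the others. Control 1_Cy3 was also alone for Tpt1 (18.08 against 17.44 to 17.55), Rpl41 (18.03 against 17.67 to 17.71), Acta2 (17.71 against 17.61 to 17.63), Krt8 (6.82 against 6.51 to 6.54) and Flt4 (6.71 against 6.31 to 6.34), each higher, and for Glrx2 (17.31 against 17.85 to 17.93), lower. Control 1_Cy5 was alone for Actg1 (18.05 against 17.79 to 17.83), Ddx4 (6.71 against 6.36 to 6.41) and Twist1 (11.07 against 11.13 to 11.14). Control 2_Cy3 was alone for Hoxb7 (11.90 against 12.11 to 12.13) and Sox5 (14.83 against 14.51 to 14.52), and control 2_Cy5 for Tnni2 (7.33 against 7.68 to 7.74). Krt8, Flt4 and Ddx4 were detected in no control.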

How the results depend on the processing

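The count of genes silent in the controls depended on the detection rule, with 5011 by the rule used, 1440 by the flag for a positive and significant spot and 3074 by the 99th percentile of negative control spots, and leaving out 1 control gave 5056 to 6543, the highest without control 2_Cy3. Genes detected throughout numbered 12801, with 11803 to 14726 under the other rules and 12818 to 13210 with 1 control left out. Among families, olfactory receptors detected throughout numbered 33 by the negative control spots and 85 by at least 3 of 4 controls, and silent vomeronasal type 1 receptors 94 and 49 by the negative control spots and the positive and significant flag. The slide difference had 8085 calls, 3032 with the 4 controls alone and 5240 to 5922 with 1 control left out, and quantile normalization without loess turned the balance to 3713 higher and 4202 lower. The dye difference had 158 calls, 4 with the 4 controls alone (1444 at an unadjusted p under 0.05, limma), 98 with the mean over probes, 307 with loess and Aquantile, and 0 to 869 with 1 control left out. Of the slide differences of 78 single genes, 676 values under the alternatives stayed past or short of the threshold and 175 no longer passed it. The median level was 10.69 to 10.71 and the mean r 0.992 to 0.993 throughout. The cause of these shifts was not tested. No paired analysis was possible because the slide comparison sets the replicate numbers against each other and only 1 group is described. A signal close to background cannot be told from none, so silent means not seen at this brightness.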
